A study of Mus musculus with 14 samples.

Results

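The Polycomb repressive complex 1 (PRC1) genes described here are Bmi1, Ring1, Rnf2, Cbx2, Cbx6, Cbx7, Cbx8, Phc2 and Kdm2b, 9 genes chosen by name and located by coordinates, out of 21900 protein-coding gene symbols with a position in the tables used. The study worked with a mouse cell line that its labels call LEPC, of strain C57BL/6 and grown for 3 passages, and its title places it in liver cancer. The scr cells were the control, the miR-93-5p cells overexpressed that microRNA, and the mutant cells overexpressed a mutated form of it. Each condition had 1 RNA-seq library and 1 pulldown library, in which mRNA bound to the microRNA was sequenced and for which biotin is mentioned in the miR-93-5p group. The sample titles state overexpression for the RNA-seq and chromatin samples and not for the pulldown samples. In the pulldown, scr, miR-93-5p and mutant therefore name the microRNA of the title and not an overexpressing line. The scr and miR-93-5p cells also had 1 chromatin immunoprecipitation library each for H3K4me3, H3K27me3 and H3K9me3, and their 2 input samples were not analysed here. The sources used here do not say whether a line is 1 clone, and bulk libraries cannot tell fewer expressing cells from less RNA per cell. With 1 library per group there was no replicate error and no test, so every difference below is between libraries.

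PRC1 is a group of chromatin complexes that attach ubiquitin to histone H2A and help to keep developmental genes silent. Ring1 and Rnf2 encode the alternative catalytic ubiquitin ligases, and Bmi1 encodes a PCGF partner that activates them. The chromobox proteins, encoded by Cbx2, Cbx6, Cbx7 and Cbx8, bind H3K27me3, the mark written by PRC2, through their chromodomain. Phc2 encodes a polyhomeotic protein that polymerizes and clusters the complexes, and Kdm2b encodes a histone demethylase whose zinc finger binds unmethylated CG dinucleotides and brings a variant PRC1 to CpG islands. H3K4me3 marks active or poised gene starts, and H3K9me3 marks another, HP1-bound form of silent chromatin.

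The mature microRNA is shown because the pulldown was built on it. Capitals mark its seed, bases 2 to 8, with which a microRNA pairs to its targets.
mmu-miR-93-5p: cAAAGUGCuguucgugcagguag
Promoters are shown where histone marks or transcription set annotated starts apart or a wide domain lay beside the start, for the 3 annotated starts of Phc2 and the starts of Cbx7 and Cbx8. They run from 250 bases before to 50 bases after the start, 5′ to 3′ on the gene's own strand, and come from RefSeq on GRCm38.p6, with every CG dinucleotide in capitals.
Phc2, first start (chr4:128654452-128654751, plus strand): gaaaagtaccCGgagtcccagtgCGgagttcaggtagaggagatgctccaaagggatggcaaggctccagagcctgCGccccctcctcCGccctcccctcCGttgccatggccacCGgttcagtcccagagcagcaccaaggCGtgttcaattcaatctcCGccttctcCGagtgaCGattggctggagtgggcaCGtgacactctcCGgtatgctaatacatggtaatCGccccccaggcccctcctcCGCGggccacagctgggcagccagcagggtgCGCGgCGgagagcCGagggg
Phc2, second start (chr4:128688488-128688787, plus strand): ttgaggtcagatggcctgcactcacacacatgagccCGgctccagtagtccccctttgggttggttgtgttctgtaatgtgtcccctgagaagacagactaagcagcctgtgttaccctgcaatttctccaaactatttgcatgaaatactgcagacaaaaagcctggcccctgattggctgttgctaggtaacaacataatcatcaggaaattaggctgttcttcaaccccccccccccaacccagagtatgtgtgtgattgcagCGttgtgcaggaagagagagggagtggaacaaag
Phc2, innermost start (chr4:128727321-128727620, plus strand): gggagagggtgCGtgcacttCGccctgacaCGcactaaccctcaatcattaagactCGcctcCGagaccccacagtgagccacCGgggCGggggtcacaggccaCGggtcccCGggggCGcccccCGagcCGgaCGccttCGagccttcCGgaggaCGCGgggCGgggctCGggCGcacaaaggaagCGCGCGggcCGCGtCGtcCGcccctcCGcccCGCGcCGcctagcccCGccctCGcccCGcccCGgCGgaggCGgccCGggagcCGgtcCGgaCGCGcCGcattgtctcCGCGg
Cbx7 (chr15:79932597-79932896, minus strand): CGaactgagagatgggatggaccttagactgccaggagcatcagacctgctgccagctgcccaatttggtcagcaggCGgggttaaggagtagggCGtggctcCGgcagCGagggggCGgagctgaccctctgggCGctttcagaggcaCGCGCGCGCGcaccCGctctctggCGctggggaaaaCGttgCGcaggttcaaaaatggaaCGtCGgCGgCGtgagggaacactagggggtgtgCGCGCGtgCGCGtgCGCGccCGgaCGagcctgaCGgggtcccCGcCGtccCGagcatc
Cbx8 (chr11:119040864-119041163, minus strand): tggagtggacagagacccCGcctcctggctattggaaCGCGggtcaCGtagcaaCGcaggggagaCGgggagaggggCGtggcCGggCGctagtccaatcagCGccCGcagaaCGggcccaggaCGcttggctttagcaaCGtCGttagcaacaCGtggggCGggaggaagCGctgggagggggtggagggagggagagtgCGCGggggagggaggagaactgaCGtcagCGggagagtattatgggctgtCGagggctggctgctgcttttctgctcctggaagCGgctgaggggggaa
The letters searched were CG, which reads the same on both strands, and 94.6% of 32851 promoters of this length held it at least 1 time, with a median of 7 per promoter and quartiles of 3 and 20. The first, second and innermost Phc2 starts held 19, 2 and 45. The Cbx7 start held 33 and the Cbx8 start 24, and 8.56% and 19.98% of all promoters held at least as many. The table had entries for 8 of the 9 genes and none for Cbx2.

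Between 16822 and 18328 loci were assembled per RNA-seq library and between 14815 and 18031 per pulldown library. Values are in FPKM, fragments per kilobase of transcript model, scaled to library depth, and the range after a value is the deposited lower and upper bound of that library. Because each library had its own transcript models, the number of fragments that would give those bounds by counting error alone, called implied fragments, is given as a second measure. It does not divide by the length of the model, but it still depends on the models, since the bounds grow when isoforms share fragments and the implied number can then fall below the real one. This limit applies to every gene for which the 2 measures differ. Of the marker lists, biliary and epithelial progenitor genes had a locus for 6 of 8 in each RNA-seq library, with a summed level between 1535 and 2145 FPKM. Krt19 and Prom1 had none in scr, and Epcam and Prom1 had none in miR-93-5p and mutant, so the sums cover different genes. Of the 5 compared members of that list, 1 was at least 2-fold up and 2 at least 2-fold down in miR-93-5p against scr. These were Spp1 at 1076 FPKM against 531, Krt8 at 230 against 658 and Cdh1 at 1.52 against 30.7. In implied fragments 1 was also up and 2 down by as much, but Krt18 (log2 ratio -1.56) was down and Krt8 (-0.24) was not. Hepatocyte markers had a locus for 6, 3 and 5 of 7 in scr, miR-93-5p and mutant, with sums of 83.0, 14.3 and 38.8 FPKM, and Alb had none in miR-93-5p. Endothelial markers had none of 5, leukocyte markers 2, 1 and 1 of 6 at no more than 9.19 FPKM in sum, and fibroblast and stellate markers 1, 0 and 1 of 7 at no more than 1.468 FPKM. Pecam1 and Ptprc, which define endothelium and leukocytes, had no locus in any library. Levels of hepatocyte and of epithelial markers thus differed between the libraries, and their part in the differences below was not tested.

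In RNA-seq, the first question was whether PRC1 mRNAs differed between the conditions. A locus counted as a gene's when each was the other's best overlap with at least 0.5 of their joint length shared, and 6 of the 9 genes (Bmi1, Ring1, Rnf2, Cbx2, Cbx8 and Kdm2b) met this in all 3 libraries and had a mean of at least 1 FPKM. None of the 6 differed 2-fold or more between miR-93-5p and scr, while 6.83% of 8423 compared genes did, 2.97% upward and 3.86% downward. None did between miR-93-5p and mutant or between mutant and scr either, where 3.62% and 6.27% of all genes did. Their median log2 ratio of FPKM plus 1 was -0.026 for miR-93-5p over scr, -0.052 for miR-93-5p over mutant and -0.0090 for mutant over scr, against 0.030, 0.015 and 0.015 over all genes. In implied fragments also none of the 6 reached 2-fold, where 15.2%, 11.9% and 15.0% of all genes did in the same 3 pairs. With 6 genes, a count of 0 lies near what these shares give.

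The catalytic genes stood at moderate and similar levels. Ring1 (mm9 chr17:34157737-34161625) was at 12.6 FPKM (11.6 to 13.5) in the scr cells, 11.04 (10.04 to 12.04) in miR-93-5p and 12.3 (11.4 to 13.2) in mutant. Its bounds overlapped in all pairs of libraries, and its log2 ratio over scr was -0.17 in miR-93-5p and -0.03 in mutant. In implied fragments, 661, 485 and 757, the ratio of miR-93-5p over scr was -0.49 after scaling, with a counting interval (95%) of -0.66 to -0.32, the lowest of the 8 genes with a value. Rnf2 (chr1:153316536-153347953) was at 14.5 FPKM (13.6 to 15.3), 12.9 (12.2 to 13.7) and 14.0 (13.3 to 14.7). Its 3 ranges also overlapped, and its fragment ratio of miR-93-5p over scr was -0.17 (-0.29 to -0.057).

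Bmi1 (chr2:18598645-18608256) was the most abundant of the 6. It stood at 26.9 FPKM (25.5 to 28.2) in the scr cells, 34.2 (32.4 to 36.1) in miR-93-5p and 31.0 (29.4 to 32.6) in mutant. The scr range lay below both others, and the log2 ratios over scr were 0.34 in miR-93-5p and 0.20 in mutant. Its implied fragments went the other way, 1552, 1380 and 1484, which after scaling gave -0.22 (-0.32 to -0.11) and -0.46 (-0.57 to -0.36). The 2 measures therefore gave opposite directions for Bmi1 at differences well under 2-fold.

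The chromobox genes spanned the whole range of levels. Cbx2 (chr11:118884276-118892584) was at 8.14 FPKM (7.53 to 8.76), 8.78 (8.12 to 9.44) and 8.22 (7.68 to 8.76) in scr, miR-93-5p and mutant, with overlapping bounds and a fragment ratio of miR-93-5p over scr of -0.035 (-0.19 to 0.12). Cbx6 had no mm9 position in the files and was placed by its neighbours, as the assembled locus between Dnal4 and Apobec3 whose span, between 10421 and 10543 bp, was nearest to the gene's 10436 bp. The protein-coding genes between those neighbours in the RefSeq order also include Nptxr and the readthrough gene Npcd, so reads of Npcd can be part of the value. That locus (chr15:79654331-79664873 in scr) was at 39.6 FPKM (37.9 to 41.2), 48.2 (45.9 to 50.5) and 38.9 (37.4 to 40.4), so miR-93-5p lay above both others in FPKM. In implied fragments, 2196, 1780 and 2591, miR-93-5p over scr was -0.35 (-0.44 to -0.26), again the opposite direction.

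Cbx8 (chr11:118897619-118902283) had the largest FPKM difference of the 6. It was at 5.33 FPKM (4.52 to 6.14) in the scr cells, 2.60 (2.25 to 2.94) in miR-93-5p and 2.93 (2.60 to 3.26) in mutant. The scr range lay above both others, at log2 ratios of -0.82 and -0.69. The models differed between the libraries. In scr the gene was assembled as 2 loci of 2406 and 1072 bp and the value is that of the larger, whereas in miR-93-5p a single locus spanned 4365 bp and in mutant the matched locus spanned 3961 bp. Summed over all loci of the gene the implied fragments were 198, 225 and 327, and the scaled log2 ratios over scr were 0.14 (-0.14 to 0.41) in miR-93-5p and 0.32 (0.070 to 0.58) in mutant. The lower FPKM of Cbx8 was thus not seen in fragments. By the distance between pairs of RNA-seq log2 ratios over scr across the 3 libraries, the genes nearest to Cbx8 among 8423 were 9530077C05Rik, Tut1 and Cdk5rap1, at distances of 0.0098, 0.021 and 0.023.

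Cbx7 (chr15:79746237-79801549) had no RNA-seq locus over its body. No RNA-seq locus lay in it in miR-93-5p or mutant, and in scr the only overlapping locus (0.764 FPKM, 0.438 to 1.09) reached into its end by a small part of its length. In the pulldown, miR-93-5p alone held a locus in it, of 440 bp at 3.66 FPKM (1.63 to 5.69) and 13 implied fragments. This locus lay farther from the 3′ end than the printed Cbx7 start, and whether it was Cbx7 mRNA was not tested. Loci of that library were short in general, with a median of 2121 bp.

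The polyhomeotic gene Phc2 (chr4:128331982-128430125) was covered mainly by a locus over its last part, so it missed the overlap rule in every library. This locus spanned 25294, 25019 and 25082 bp in the 3 libraries and began 72.8 to 73.1 kb into the gene of 98144 bp. It was at 38.5 FPKM (36.5 to 40.5), 42.6 (40.4 to 44.7) and 41.9 (40.1 to 43.6). The bounds overlapped in all pairs of libraries, and the log2 ratios over scr were 0.14 and 0.12. In scr a further locus lay 57.3 to 68.5 kb into the gene, at 0.981 FPKM (0.412 to 1.55) and 11.9 implied fragments. Kdm2b (chr5:123320677-123465089) was at 9.57 FPKM (8.91 to 10.2), 10.5 (9.76 to 11.3) and 10.5 (9.88 to 11.1), with overlapping bounds. Implied fragments of its matched locus were 853, 775 and 1138, a scaled ratio of miR-93-5p over scr of -0.19. Summed over its loci this ratio was -0.27 (-0.41 to -0.14). The loci added in that sum begin 118.9 kb or more from the 3′ end. By distance they lie beyond the outermost RefSeq start of Kdm2b, at 118.4 kb. A further locus, 118.9 to 127.6 kb from the 3′ end of Kdm2b in scr, was at 2.21 FPKM (1.62 to 2.79) there. It was at 0.637 (0.358 to 0.916) in miR-93-5p and 1.19 (0.843 to 1.53) in mutant. In scr the order of levels was Cbx6, Phc2, Bmi1, Rnf2, Ring1, Kdm2b, Cbx2 and Cbx8, and of neighbours in it Cbx6 and Phc2 alone had overlapping bounds within that library.

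**Figure D1:**
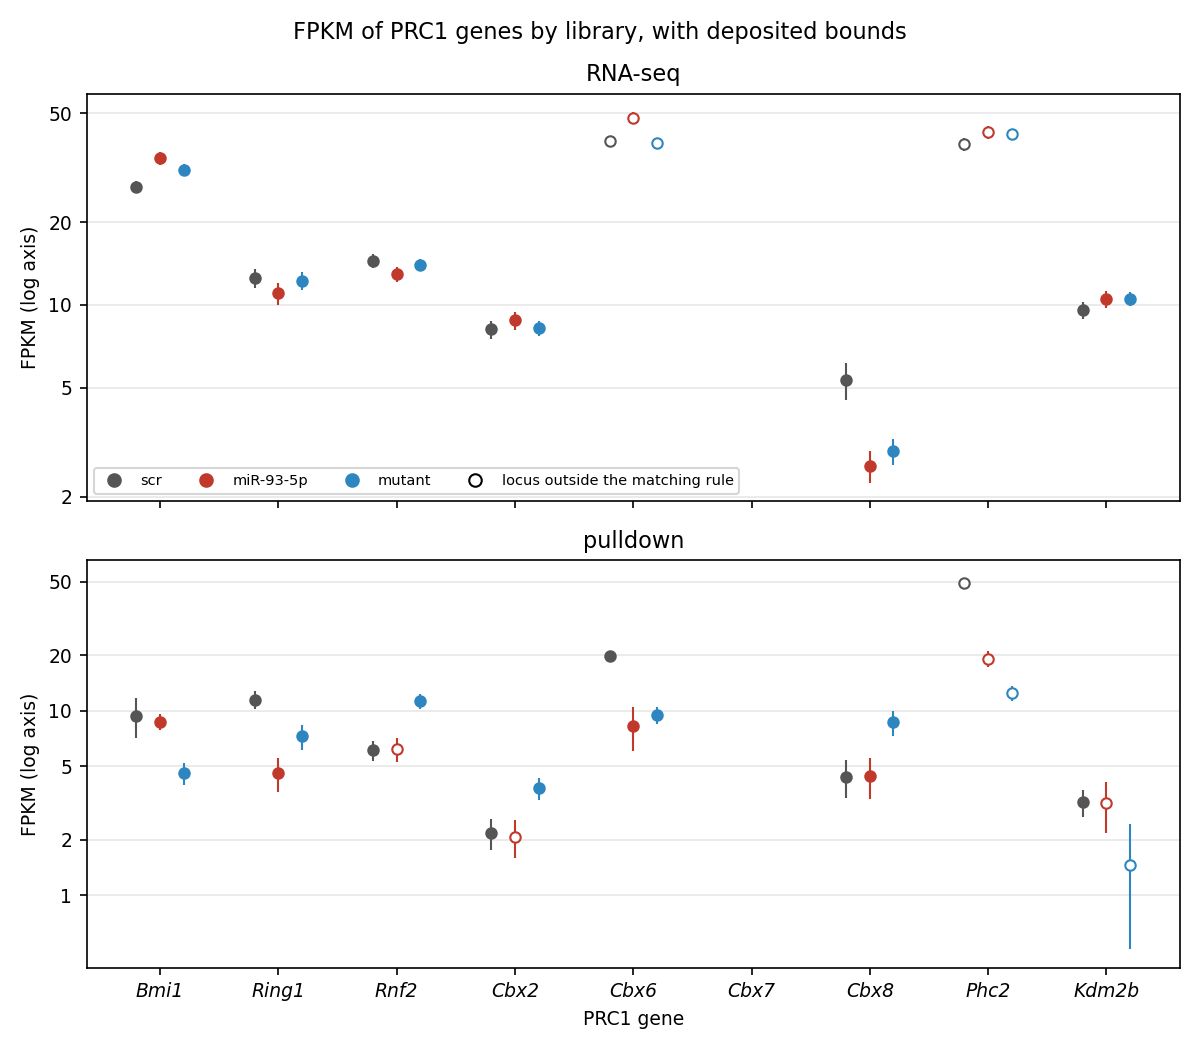
FPKM on a log axis of each PRC1 gene in the RNA-seq (top) and pulldown (bottom) libraries of scr, miR-93-5p and mutant, 1 library each, with vertical lines for the deposited bounds and open points for loci outside the overlap rule. The RNA-seq values of a gene lie close together except for Cbx8 (5.33, 2.60 and 2.93), while pulldown values of Phc2 run from 49.2 to 12.5, and Cbx7, with no locus but short pieces, is not drawn.

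The other genes of the pathway were compared in RNA-seq in the same way. Of 27 other PRC1 genes 20 were compared, and 1 was at least 2-fold down in miR-93-5p against scr and none up by as much, with a median of -0.078, beside 3.86% down and 2.97% up over all genes. That gene, the casein kinase subunit gene Csnk2b, stood at 139 FPKM in the scr cells, 41.7 in miR-93-5p and 120 in mutant. Its implied fragments, 2772, 3156 and 4058, gave a ratio of miR-93-5p over scr of 0.14. Of the 17 other PRC1 genes compared in implied fragments, 2 were at least 2-fold up in miR-93-5p against scr and 1 down. Over all genes 15.2% passed 2-fold either way in that measure. Pcgf3, a relative of Bmi1, was at 30.1 FPKM against 17.1 in scr, and Phc1, a relative of Phc2, at 11.5 against 17.3. None of 10 PRC2 genes (median 0.089), 5 genes of histone H2A deubiquitination (median -0.15) and 7 well known Polycomb target genes (median -0.13) differed 2-fold in miR-93-5p from scr. Cdkn2a and Cdkn2b, cell cycle inhibitor genes that Bmi1 is known to hold silent, were not among the genes compared in RNA-seq. They did not meet the overlap rule and level limit in all libraries, which does not show that they lacked transcript. No peak of any mark lay over either gene.

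The pulldown comparison asked which PRC1 mRNAs were recovered with miR-93-5p. Here 4 of the 9 genes (Bmi1, Ring1, Cbx6 and Cbx8) were matched in all 3 libraries and passed the mean of 1 FPKM. Ring1 and Cbx6 stood 2-fold or more below scr in miR-93-5p and none stood above it by as much, while 33.5% of 5246 genes did so downward and 11.8% upward, in all 45.3%. A count of 2 in 4 is not far from that background, and the median over all genes was itself -0.48. With that median set to 0, 0 of the 4 passed 2-fold. None of the 4 differed 2-fold between miR-93-5p and mutant or between mutant and scr, where 31.4% and 44.7% of all genes did, but Cbx6 lay just inside the limit for mutant over scr. The member median was -0.63 against scr and -0.37 against mutant, and -0.74 for mutant against scr, against -0.48, -0.43 and -0.056 over all genes. In implied fragments of the matched locus 3, 2 and 3 of the 4 passed 2-fold in these 3 pairs, where 43.2%, 29.9% and 38.9% of all genes did. None of the 4 was 2-fold higher in the miR-93-5p pulldown than in either other pulldown in FPKM.

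Ring1 stood at 11.5 FPKM (10.2 to 12.8) in the scr pulldown, 4.58 (3.61 to 5.55) in miR-93-5p and 7.27 (6.15 to 8.38) in mutant. The 3 ranges did not overlap, with miR-93-5p lowest, with log2 ratios of -1.16 against scr and -0.57 against mutant. Its implied fragments, 308, 88.9 and 170, gave -1.17 (-1.51 to -0.83) over scr and -0.10 (-0.47 to 0.27) over mutant, so its lower recovery than in scr was seen in both measures. Cbx6 was at 19.9 FPKM (18.7 to 21.2), 8.26 (6.01 to 10.5) and 9.47 (8.43 to 10.5). The scr library was above both others, but its gene was 1 locus in scr, 3 loci in miR-93-5p and 2 in mutant. The matched miR-93-5p locus held 53.98 implied fragments, while another of 661 fragments was at 11.6 FPKM (10.7 to 12.5), and in mutant another of 488 fragments was at 14.4 FPKM (13.1 to 15.7). At those values Cbx6 would not be 2-fold below scr. Summed over these, the implied fragments were 1016, 729 and 820, and the scaled ratio over scr was 0.15 (0.011 to 0.29) in miR-93-5p and -0.52 (-0.65 to -0.39) in mutant.

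Bmi1 was at 9.41 FPKM (7.11 to 11.7) in the scr pulldown, 8.72 (7.85 to 9.59) in miR-93-5p and 4.61 (3.98 to 5.23) in mutant. The mutant range lay below both others, and the log2 ratio of miR-93-5p was -0.10 over scr and 0.79 over mutant. Its implied fragments were 66.7, 404 and 216, so in that measure miR-93-5p was above both, at scaled log2 ratios of 3.22 (2.85 to 3.60) over scr and 1.74 (1.504 to 1.98) over mutant. The scr value rests on wide bounds, and the scr locus was 7497 bp long against 9645 and 9474. Cbx8 was at 4.38 FPKM (3.36 to 5.39), 4.43 (3.34 to 5.52) and 8.66 (7.30 to 10.0). The mutant was the high library, with log2 ratios of miR-93-5p of 0.014 over scr and -0.83 over mutant. Summed over its loci, its fragments gave 0.68 (0.22 to 1.14) over scr and -0.42 (-0.81 to -0.041) over mutant.

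**Figure D2:**
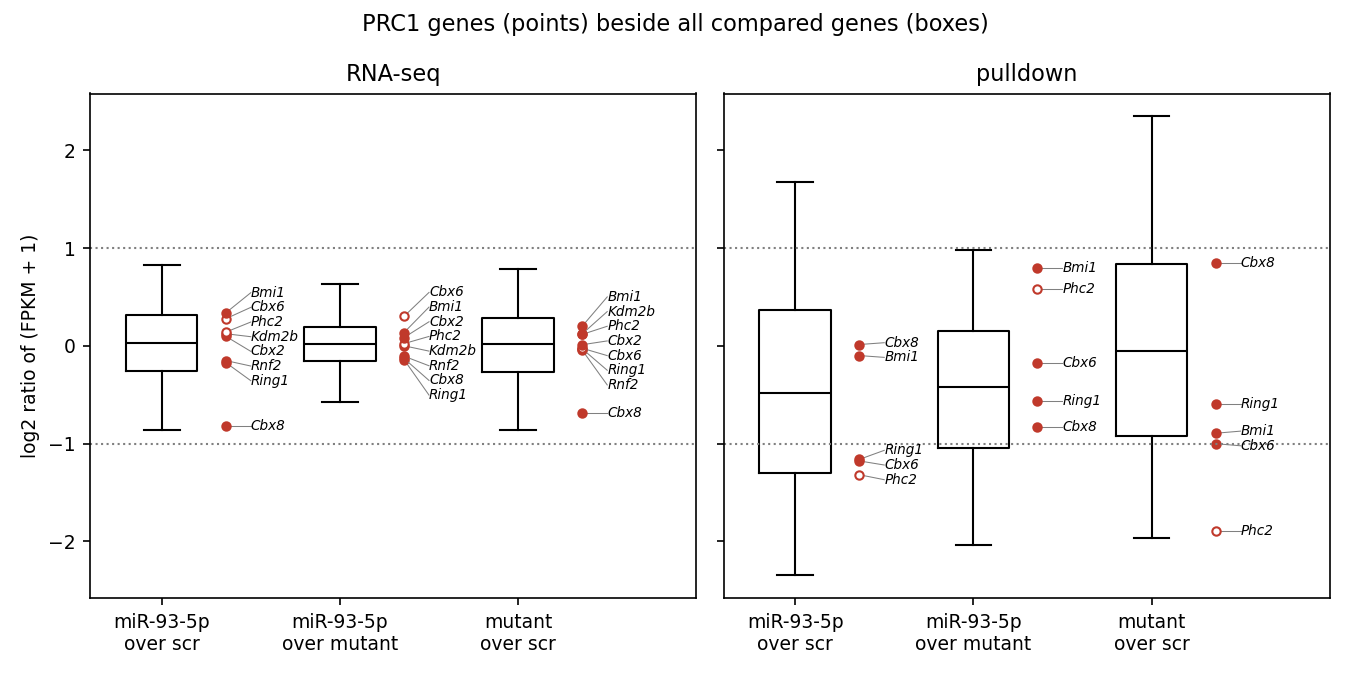
Log2 ratios of FPKM plus 1 in RNA-seq (left) and pulldown (right) for the 3 pairs of conditions, with points for the PRC1 genes (open where the locus lies outside the overlap rule) and boxes for all compared genes (median, quartiles, whiskers at the 5th and 95th percentile, dotted lines at 2-fold). The RNA-seq points lie between -0.82 and 0.34, and the pulldown points of Ring1, Cbx6 and Phc2 lie below -1 for miR-93-5p over scr.

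Phc2, which missed the overlap rule, was covered over the same last part in each pulldown library, by a locus of 25291, 25270 and 25244 bp, and so could be set side by side. It stood at 49.2 FPKM (46.1 to 52.2) in the scr pulldown, 19.1 (17.2 to 21.0) in miR-93-5p and 12.5 (11.3 to 13.7) in mutant. The 3 ranges did not overlap, and the scr library was high, at log2 ratios of -1.32 for miR-93-5p and -1.90 for mutant over scr. In implied fragments, 1060, 401 and 417, these were -0.78 (-0.94 to -0.61) and -1.56 (-1.72 to -1.40). Both measures thus placed miR-93-5p and mutant below scr, and mutant alone was 2-fold or more below it in both. Both ratios share the 1 scr pulldown library.

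Rnf2, Cbx2 and Kdm2b had no full-length locus in the miR-93-5p pulldown. Rnf2 was at 6.11 FPKM (5.34 to 6.88) in scr and 11.3 (10.2 to 12.3) in mutant over its whole length, and in miR-93-5p its leading locus of 7608 bp was at 6.18 (5.28 to 7.09). Cbx2 was at 2.18 FPKM (1.76 to 2.60) in scr, 3.79 (3.26 to 4.32) in mutant, and 2.06 (1.58 to 2.54) over 2884 bp in miR-93-5p. For both the mutant library was the high one, and their summed fragments gave miR-93-5p over mutant at -0.32 (-0.56 to -0.080) for Rnf2 and -0.64 (-1.03 to -0.26) for Cbx2. Kdm2b was at 3.18 FPKM (2.65 to 3.71) over 62243 bp in scr and at 3.15 (2.18 to 4.11) over 1194 bp in miR-93-5p. In mutant its loci of 9714 and 19591 bp were at 1.65 (1.20 to 2.11) and 1.46 (0.508 to 2.42), and these partial loci were not compared in FPKM. Its summed fragments gave miR-93-5p at -1.15 (-1.64 to -0.65) over scr and 0.30 (-0.26 to 0.87) over mutant. Mutant over scr was at -1.45 (-1.88 to -1.02). In the miR-93-5p pulldown the median locus of the whole library was 2121 bp against 9177 in scr and 9086 in mutant, so its short loci of PRC1 genes went with short loci in general.

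Among other PRC1 genes 8 of 15 stood 2-fold or more below scr in the miR-93-5p pulldown and 1 above it by as much, with a median of -1.11, beside 33.5% and 11.8% of all genes and their median of -0.48. In implied fragments 6 of the 15 stood below and 5 above, with a median of 0.064, beside 43.2% of all genes past 2-fold either way. Csnk2b was at 273 FPKM in the scr pulldown, 49.3 in miR-93-5p and 78.1 in mutant. The deacetylase gene Hdac1 was at 59.3, 10.3 and 25.02 FPKM. Pcgf2, a close relative of Bmi1, was at 22.5, 5.95 and 6.30 FPKM, but its implied fragments were 19.04, 173 and 186. Of 7 PRC2 genes 2 stood below scr by 2-fold or more and none above, among them the histone chaperone gene Rbbp4 at 116, 15.99 and 35.2 FPKM. In implied fragments 1 of the 7 stood below by as much and 2 above, beside the same 43.2% of all genes either way.

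The histone mark comparison asked which marks lay on the PRC1 genes and whether they differed between scr and miR-93-5p. Every one of the 8 genes with an mm9 position overlapped an H3K4me3 peak in both libraries, as 56.3% and 56.6% of 18493 protein-coding genes did, and the Cbx6 locus placed by neighbours did too. H3K27me3 peaks lay on 3 of the 8 in both libraries, Cbx7, Phc2 and Kdm2b, against 20.4% and 19.0% of all genes. H3K9me3 peaks lay on Ring1 and Cbx7 in scr and on Cbx7, Phc2 and Kdm2b in miR-93-5p, against 15.4% and 20.2%. Within 2 kb of the gene start, taken as the 5′ end of the mm9 locus for the 7 genes with a strand and an mm9 position, H3K4me3 lay at 5 in both libraries (Bmi1, Ring1, Rnf2, Cbx8 and Kdm2b), against 53.6% and 53.3% of all genes. H3K27me3 lay there at Cbx7 and Cbx8 in scr and at none in miR-93-5p, against 13.7% and 8.12%, and H3K9me3 at none in either, against 4.29% and 6.14%. For Kdm2b that end lies, by distance, beyond every RefSeq start, and its count rests on the peak shared with the start of Orai1. For Cbx7 the RefSeq gene, of 55340 bp in GRCm38.p6, has about the span of the mm9 locus. The printed Cbx7 promoter belongs to another start, 16.8 kb from the 3′ end. Near that start H3K9me3 and H3K4me3 peaks lie within 2 kb and no H3K27me3 peak does. Among peaks scoring at least 100, H3K27me3 in miR-93-5p lay on Kdm2b alone (6.79% of all genes) and H3K9me3 in scr on Cbx7 alone (7.46%), and Cbx7 alone had at least 500 bp under H3K9me3 in scr (15.0%). Cbx7, Phc2 and Kdm2b are the longest of the 8 genes, and a longer locus overlaps a peak more easily. Scores are the deposited peak caller's and were not compared between libraries.

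H3K27me3 covered 32.7 kb of the 8 loci in scr and 7.32 kb in miR-93-5p, 4.46 times as much in scr. Kdm2b gave 8.02 and 4.23 kb of these totals, by its mm9 locus alone and, by distance, beyond its outermost RefSeq start. Over all protein-coding loci H3K27me3 covered 23.1 and 9.20 Mb, a ratio of 2.51. The whole peak lists covered 60.01 and 23.7 Mb with median widths of 1049 and 473 bp. The narrowing on PRC1 genes thus came with a narrowing over the whole list, in which 687 peaks of scr and 0 of miR-93-5p were 5 kb or wider. H3K4me3 covered 27.7 and 28.8 kb of the 8 loci, against 22.7 and 24.6 Mb of all gene loci. H3K9me3 covered 10.2 and 12.3 kb, against 7.14 and 11.9 Mb.

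Bmi1, Ring1, Rnf2, Cbx2, Cbx6 and Cbx8 shared a simple pattern, 1 H3K4me3 peak reaching in over 1 end of the gene and no H3K27me3 peak on it. For the 5 with a strand in the tables, all but Cbx2, this was the end with the start. Each of these peaks had a score of 3100, the median of both H3K4me3 lists, and covered between 1.11 and 2.64 kb of the gene. On Bmi1 it covered 2.14 kb in scr and 2.06 kb in miR-93-5p, and on Rnf2 2.26 and 2.53 kb. Ring1 also had a narrow H3K9me3 peak over its last 0.452 kb in scr, of score 54.6 near the lowest deposited score of 50. In miR-93-5p no such peak lay on the gene, but a peak of 1.71 kb with a score of 118 ended just outside its 3′ end.

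A wide block of H3K27me3 lay beside Cbx8. Cbx2 and Cbx8 lie next to each other on chromosome 11, and a peak of 13.9 kb (mm9 chr11:118902741-118916651) began 457 bp upstream of the Cbx8 start in scr. Of 44412 peaks of that library it ranked 13 by width and 2 by score (2041). In miR-93-5p the same stretch held 5 peaks covering 6.62 kb, 47.6% of it. That share was ordinary for the 45 scr peaks of 10 kb or more, whose median was 48.0% with quartiles of 37.7% and 63.9%. The Cbx8 gene itself carried no H3K27me3 peak in either library, and the H3K4me3 peak over its start, whose promoter is printed above with 24 CG, stood in both.

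**Figure D3:**
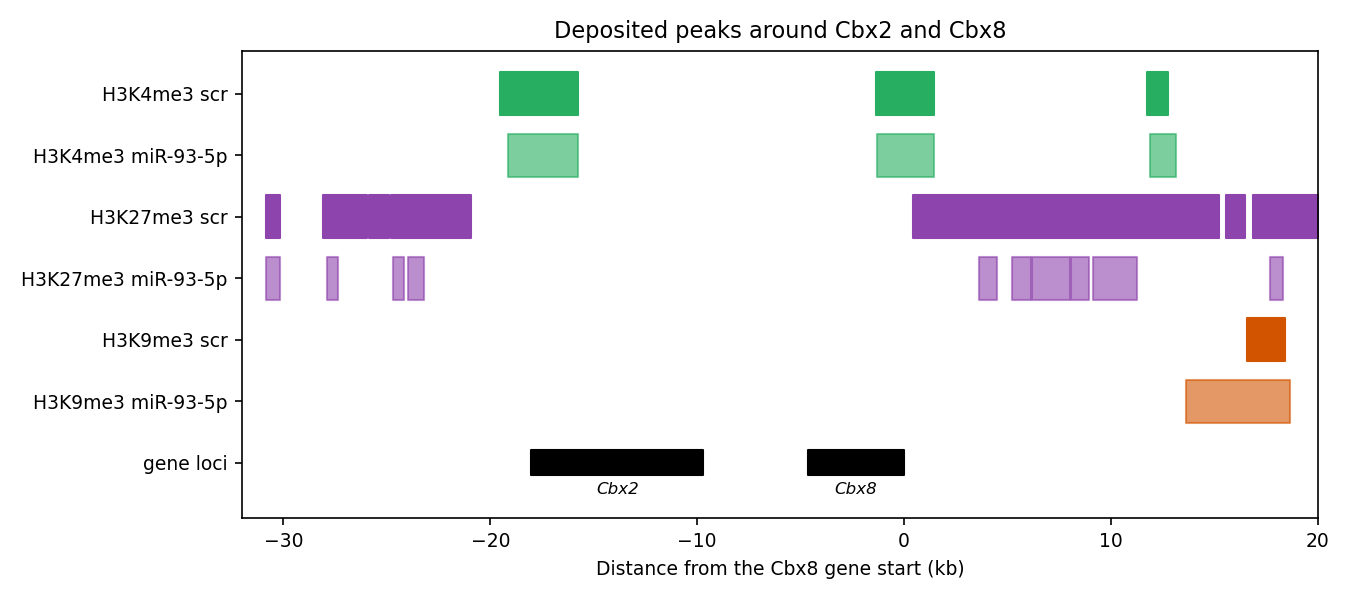
Deposited peaks of the 3 marks in scr and miR-93-5p (rows, 1 library each) around Cbx2 and Cbx8 (black bars, mm9 gene loci), by distance in kb from the Cbx8 gene start. To the right of Cbx8, H3K27me3 forms long blocks in scr, beginning with the peak of 13.9 kb, and shorter peaks in miR-93-5p, while the H3K4me3 peaks lie at the same places in both.

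Cbx7, for which RNA-seq gave no locus over the gene body, was the only member that carried all 3 marks in both libraries. H3K27me3 covered 12.1 kb of its 55.3 kb in scr with 5 peaks and 2.05 kb in miR-93-5p with 4. H3K9me3 covered 9.70 and 9.99 kb, or 17.5% and 18.1% of the gene, with 3 peaks in each library. H3K4me3 peaks were present but weak within their own lists, with a top score of 310 in scr and 1004 in miR-93-5p where the median peak of each list had 3100. In GRCm38.p6 the printed Cbx7 promoter lies 16.8 to 17.1 kb from the 3′ end of the gene. In mm9, an H3K9me3 peak lay 13.5 to 18.1 kb from that end in scr and 13.5 to 18.4 kb in miR-93-5p, and an H3K4me3 peak began at 18.2 kb in both, just beyond the H3K9me3 peak in scr and overlapping its end in miR-93-5p. The gene spans 55313 bp in mm9 and 55340 bp in GRCm38.p6, and positions were not converted between the builds. The H3K27me3 peaks lay farther from the 3′ end, between 26.5 and 54.7 kb in scr and between 28.6 and 52.1 kb in miR-93-5p.

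**Figure D4:**
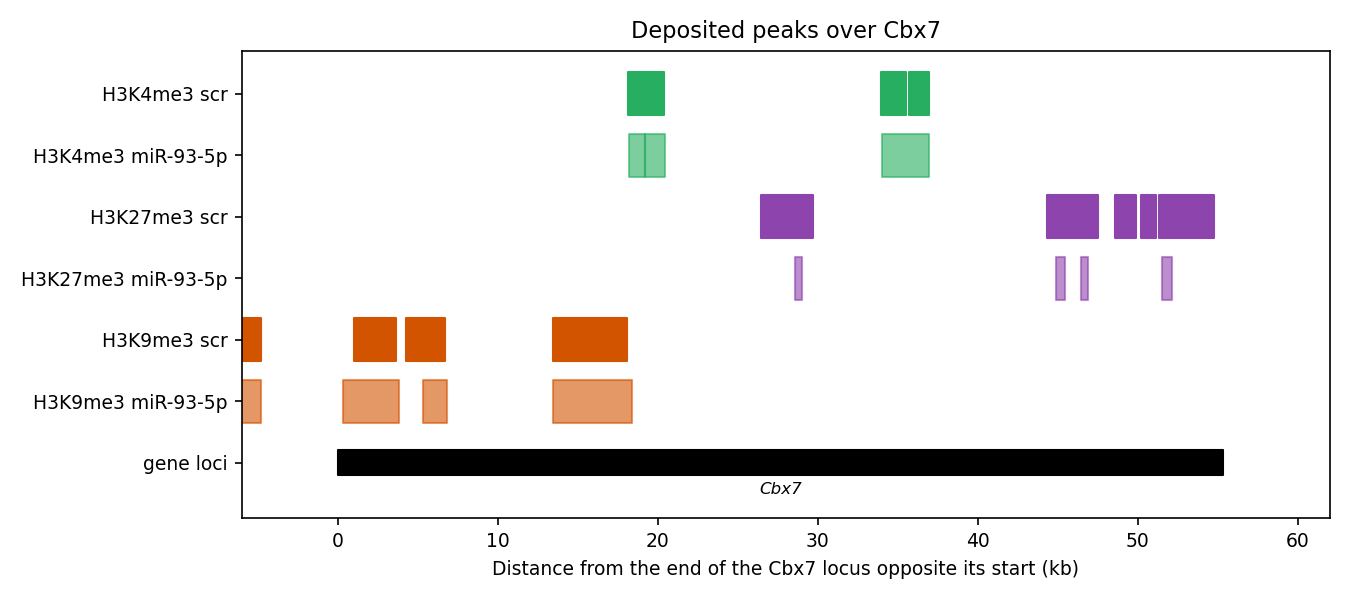
Deposited peaks of the 3 marks in scr and miR-93-5p (rows, 1 library each) over the Cbx7 locus (black bar, mm9), by distance in kb from its 3′ end. H3K9me3 lies in the 3′ part of the gene in both libraries, and the H3K27me3 peaks, 5 in scr and 4 in miR-93-5p, are shorter in miR-93-5p.

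Phc2 was split into a part with H3K27me3 and a part with H3K4me3 and transcript. In scr 11 H3K27me3 peaks, covering 12.6 kb, lay between 3.09 and 55.7 kb from the first start, and 3 peaks in miR-93-5p covered 1.04 kb of that stretch. The H3K4me3 peak of score 3100 lay 71.9 to 77.3 kb into the gene in scr and 71.9 to 77.6 kb in miR-93-5p. A weaker H3K4me3 peak, of score 247 in scr and 410 in miR-93-5p, lay at 56.8 to 57.98 kb in scr, next to the last H3K27me3 peak. The low scr locus of 0.981 FPKM began within this peak. The main transcribed locus began within the stronger peak, at 72.8 kb in scr, and the innermost annotated start, whose 45 CG were reached by 1.93% of all promoters, lies at 72.9 kb in GRCm38.p6. No H3K4me3 peak lay within 2 kb of the first start, which holds 19 CG. A single H3K9me3 peak, 32.8 to 34.0 kb into the gene, was found in miR-93-5p and not in scr. The second start, with 2 CG, lies 34.1 kb into the gene in GRCm38.p6.

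**Figure D5:**
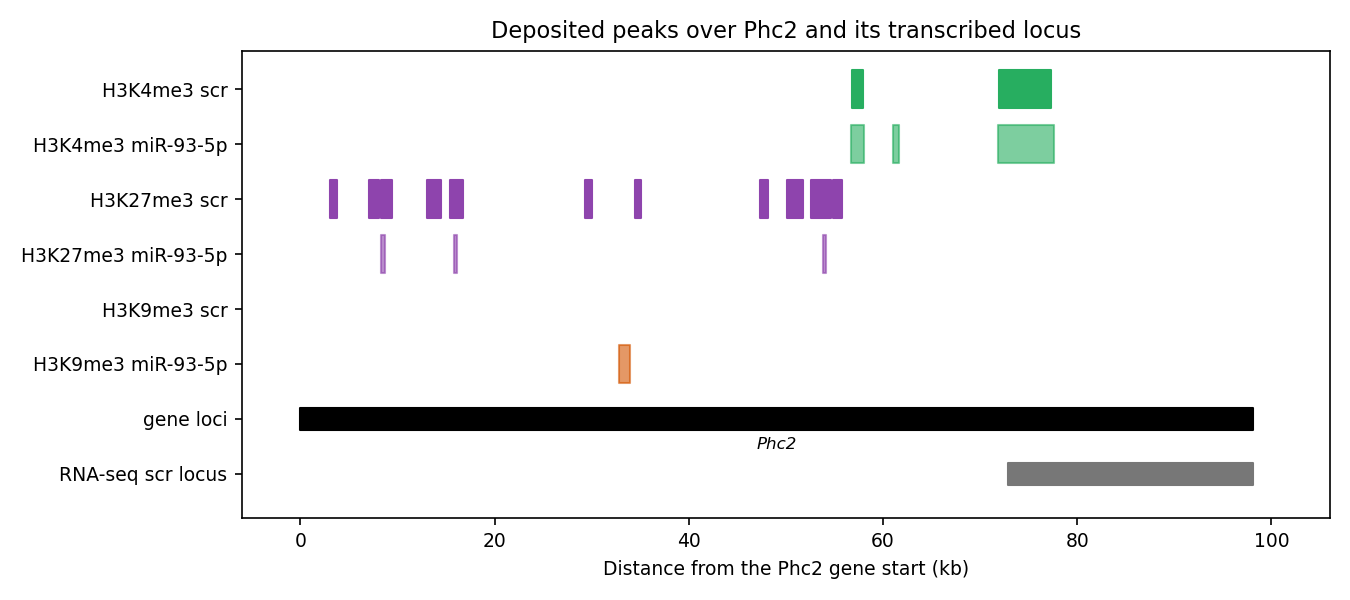
Deposited peaks of the 3 marks in scr and miR-93-5p (rows, 1 library each) over the Phc2 locus (black bar, mm9) and the locus assembled in scr RNA-seq (grey bar), by distance in kb from the Phc2 gene start. H3K27me3 peaks lie to the left of 55.7 kb, and the widest H3K4me3 peak lies where the RNA-seq locus begins, at 72.8 kb.

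Kdm2b had 3 H3K4me3 peaks of score 3100 in both libraries. Measured from the 3′ end of the gene, they lay at 27.9 to 30.6 kb, 117 to 120 kb and 143 to 146 kb in scr. Its RefSeq starts on GRCm38.p6 lie at 29.7 kb, with 47 and 49 CG, and at 118 kb, with 18 and 28 CG, so the first 2 peaks lie at the distances of annotated starts, and the matched RNA-seq locus of scr also ended at 118 kb. The last peak lies where the mm9 gene locus meets the start of Orai1, a calcium channel gene. Between the last 2 peaks, H3K27me3 covered 8.02 kb in scr with 5 peaks and 4.23 kb in miR-93-5p with 4, from 130 to 140 kb in scr. The gene spans 144413 bp in mm9 but 118607 bp in GRCm38.p6, so by distance all of this H3K27me3 lies beyond its outermost RefSeq start, and Kdm2b counts as carrying the mark by its mm9 locus alone. An H3K9me3 peak covering 1.17 kb was found in miR-93-5p and not in scr, with a score of 61.98 near the lowest deposited score.

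Among the other lists, H3K27me3 lay on 3 of 24 other PRC1 genes in both libraries, covering 4.21 kb in scr and 1.20 kb in miR-93-5p, and on 1 of 11 PRC2 genes in scr and none in miR-93-5p. Of 16 well known Polycomb target genes with an mm9 position, 7 carried it in scr and 6 in miR-93-5p, covering 16.8 and 9.46 kb. Over the 8 PRC1 genes the summed length was larger than over those targets in scr and smaller in miR-93-5p, which is a description of these 2 peak lists. That length includes the Kdm2b peaks, which by distance lie beyond its outermost RefSeq start.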

How the data were processed

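FPKM of assembled loci, with a lower and an upper bound, were computed by the authors, 1 table per library, per the file headers. TopHat2, Cufflinks, Cuffdiff, CASAVA 1.4, Bowtie, MACS and mm9 are named in the submitters' processing notes, without settings. Peak scores are deposited as the caller gave them, from 50 upward, 1 list per library. RNA-seq loci and peaks were taken as mm9, with gene positions from the pulldown tables, and pulldown loci as GRCm38, with RefSeq gene positions on GRCm38.p6. Identifiers carry no gene names in the files and were named through the reference tables.

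A gene and a locus were matched at a joint overlap of at least 0.5, and genes with a mean of at least 1 FPKM were compared as log2 ratios with a pseudocount of 1 and a limit of 2-fold. Implied fragments are the square of FPKM over its counting SD, with each bound taken as 2 SD. They came to 14589704, 15301761 and 19513879 in RNA-seq and 5322228, 3814082 and 5855469 in the pulldown (scr, miR-93-5p, mutant), were then brought to a median ratio of 1 between libraries, and their intervals cover counting error only. There was no replicate in any group, so the spread between samples is unknown. All 9 members were described, and at most 4 genes per list and assay with the largest ratio over scr were eligible for naming. The members and lists were chosen with earlier results of these data known. The matching and ratios were tested on simulated data. Python 3.11.15, pandas 2.3.3, numpy 2.4.6 and matplotlib 3.10.9 were used. Alternatives covered the pseudocount, overlap, filter, scaling, measure, peak score and distance to the gene start.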

Additional observations from a re-analysis of the deposited data

How the results depend on the processing

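No paired analysis was possible because each group had 1 library, and no replicate could be left out. Of 108 recomputed values, 76 stayed within 1.5 times of the count or within the counting interval of the median. In RNA-seq, miR-93-5p over scr gave 1 member past 2-fold, Cbx8, with a pseudocount of 0.1 or FPKM summed over loci, and its median was -0.18 in implied fragments and -0.20 in fragments summed over all loci of a gene. Over mutant the median was 0.086 at an overlap of at least 0.9 (3 members) and -0.19 in summed fragments. In the pulldown, miR-93-5p over scr had 0 members past 2-fold with the median of all genes set to 0, and its median was then -0.15. It was -0.033 summed over loci, -1.16 with Phc2 added and 0.11 in summed fragments. Over mutant, 1 member passed with the median of all genes set to 0 (median 0.053), 2 in implied fragments and 1 in summed fragments (median 0.10). For mutant over scr, 2 passed with a pseudocount of 0.1, 1 summed over loci (median 0.11), 3 in implied fragments (median -0.096), 1 with Phc2 added and 5 in summed fragments (median 0.041). Within 2 kb of the gene start, H3K4me3 peaks lay at 5 of 7 members in both libraries, H3K27me3 at 2 in scr and 0 in miR-93-5p, and H3K9me3 at 0 in both. With a score of at least 100, H3K27me3 lay on 1 member in miR-93-5p and H3K9me3 on 1 in scr, and with at least 500 bp covered H3K9me3 lay on 1 in scr. The cause was not tested where no construction shows it. The added Phc2 and Cbx6 loci and the summed fragments were chosen after seeing the data.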
